A study of Mus musculus with 11 samples.

Results

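The expression of 9 genes of the interferon response was followed in sorted early thymocytes of WT and Arpp21-/- mice. They are Stat2, Irf1, Irf7 and Irf9, which encode transcription factors of interferon signalling, Isg15, Bst2 and Ifi35, which encode interferon-induced proteins, and Psmb8 and Psmb9, which encode inducible catalytic subunits of the proteasome. The genes were chosen by name and not by a value, but with earlier results of these data known. They are 9 of the 35975 genes with a transcript in the files and 9 of the 13780 genes that passed the filter on low counts. The study compared DN2 and DN3 thymocytes, the early CD4-CD8- stages of T cell development, in mice that make or lack the long form of the RNA-binding protein Arpp21. All mice were C57BL/6J by their labels. The study's methods give a C57BL/6 background, and C57BL/6N parents for the embryos that were edited. Whether the genotypes differ in substrain was not tested. The Arpp21-/- line carries a germline deletion of exon 5, made with guide RNAs for CRISPR and hence present in all cells, and the short Arpp21 protein is still made. The labels name no treatment other than the sort, animals were of both sexes and matched for sex and age, and ages of single animals were not given in the sources used here. The 11 libraries comprised 3 WT and 2 Arpp21-/- libraries at DN2 and 3 of each genotype at DN3. The labels do not say whether replicates are separate mice, so the p-values measure only the spread between these libraries, which may be technical.

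Interferons bind receptors at the cell surface whose kinases phosphorylate STAT proteins. After a type I interferon, STAT2 and IRF9 act together at the interferon-stimulated response element (ISRE), while the response to interferon-γ runs through the gamma-activated site (GAS). IRF7 is a master regulator of type I interferon genes and is itself induced by interferon, ISG15 is a ubiquitin-like modifier, and the immunoproteasome exchanges constitutive catalytic subunits for PSMB8, PSMB9 and PSMB10 and thereby changes the peptides offered on MHC class I. In a thymus without infection a low tonic level of interferon signalling is known.

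Total estimated counts were between 14531762 and 63109504 per library, and 2 libraries stood apart. The deepest, DN2 Arpp21-/- replicate 2, and the shallowest, DN3 Arpp21-/- replicate 3, had TMM factors of 0.599 and 0.861 against 1.03 to 1.11 in the other 9. In both, genes with short transcripts were high and genes with long transcripts low, with slopes of -3.07 and -1.14 log2 units for each 10-fold of transcript length, whereas the slopes of the other 9 libraries were positive, up to 0.775. The results of the members are therefore given with and without these libraries. Without them a single Arpp21-/- library is left at DN2. Any SE given for that fit at DN2 rests on the spread within the other groups. Arpp21 itself had 183, 125 and 136 CPM (each count relative to its TMM-scaled library size) in the DN2 WT replicates against 86.9 and 28.5 CPM in those of Arpp21-/-. In DN3 the values were 386, 336 and 312 CPM for WT against 335, 221 and 142 CPM for Arpp21-/-. The groups overlapped in DN3 and not in DN2, and the gene sum cannot tell whether 1 exon was lost. The DN2 marker Kit had 446 to 553 CPM in DN2 libraries other than replicate 2 of Arpp21-/-, 66.6 CPM in that library and 24.5 to 97.3 CPM in DN3 libraries. Ptcra, a marker of DN3 cells, had 1.00 to 11.7 CPM in DN2 and 365 to 605 CPM in DN3 libraries.

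The stretches of promoter that hold an interferon element show which members carry such letters near their start. In RefSeq promoters of GRCm38.p6 all 9 members matched by symbol, and the 250 bases before the start of transcription were searched on both strands for the ISRE core, GAAA and a further GAAA with any 2 bases between them, and for the GAS TTCNNNGAA, where N is any base. The ISRE core was found in Stat2, Isg15 and Bst2, and in 2.98% of all 32851 promoter windows. The GAS was found in Irf1, Bst2 and Psmb8, and in 7.02% of all windows. The match of Psmb8 lies in an annotated exon and is not shown, and the GAS of Bst2 shares bases with its ISRE core. These 4 stretches are given 5′ to 3′ on the strand of the gene, from RefSeq, because these are the members with a match outside an exon. Capitals mark the ISRE core or, in Irf1, the GAS, and the GAS of Bst2 is left in lower case.
Stat2, chr10:128270251-128270310, plus strand, 1 ISRE core read on the other strand: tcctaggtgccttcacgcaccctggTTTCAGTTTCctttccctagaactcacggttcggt
Isg15, chr4:156200850-156200921, minus strand, 3 overlapping ISRE cores: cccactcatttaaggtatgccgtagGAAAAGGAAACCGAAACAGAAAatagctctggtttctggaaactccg
Bst2, chr8:71537562-71537627, minus strand, 2 overlapping ISRE cores: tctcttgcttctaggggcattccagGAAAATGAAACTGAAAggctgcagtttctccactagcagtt
Irf1, chr11:53769899-53769957, plus strand, 1 GAS: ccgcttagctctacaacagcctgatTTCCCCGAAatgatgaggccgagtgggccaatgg
The matches in capitals began 222 bases before the start in Stat2, 78 in Isg15, 130 in Bst2 and 90 in Irf1, and the GAS of Bst2 began 136 bases before it. In the windows of Irf7, Irf9, Ifi35 and Psmb9 neither run of letters was found, which says nothing about binding elsewhere. A match is a description of letters and not a measured site.

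All members were detected in WT thymocytes, over a wide range of levels. Per length, as TPM (abundance relative to effective length, with one sum in each library), Psmb8 was the highest with 1300 ± 63.5 in DN2 WT and 1364 ± 14.6 in DN3 WT (SD, n = 3 each). In DN3 WT it was followed by Bst2 with 259 ± 18.8, Psmb9 with 225 ± 7.05, Irf1 with 85.3 ± 5.08, Ifi35 with 63.2 ± 4.88, Isg15 with 56.8 ± 7.76, Irf9 with 40.9 ± 0.81, Stat2 with 23.2 ± 6.44 and Irf7 with 16.6 ± 2.08 TPM (SD, n = 3 each). Neighbours in this order were apart in every DN3 WT library except Ifi35 and Isg15, and Stat2 and Irf7, whose ranges overlapped. In DN2 WT the order of Bst2 and Psmb9 was the other way round, with 168 ± 1.90 and 308 ± 14.1 TPM (SD, n = 3 each), and the levels of Stat2 and Irf7 again overlapped, with 17.2 ± 5.26 and 18.6 ± 1.09 TPM.

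**Figure D1:**
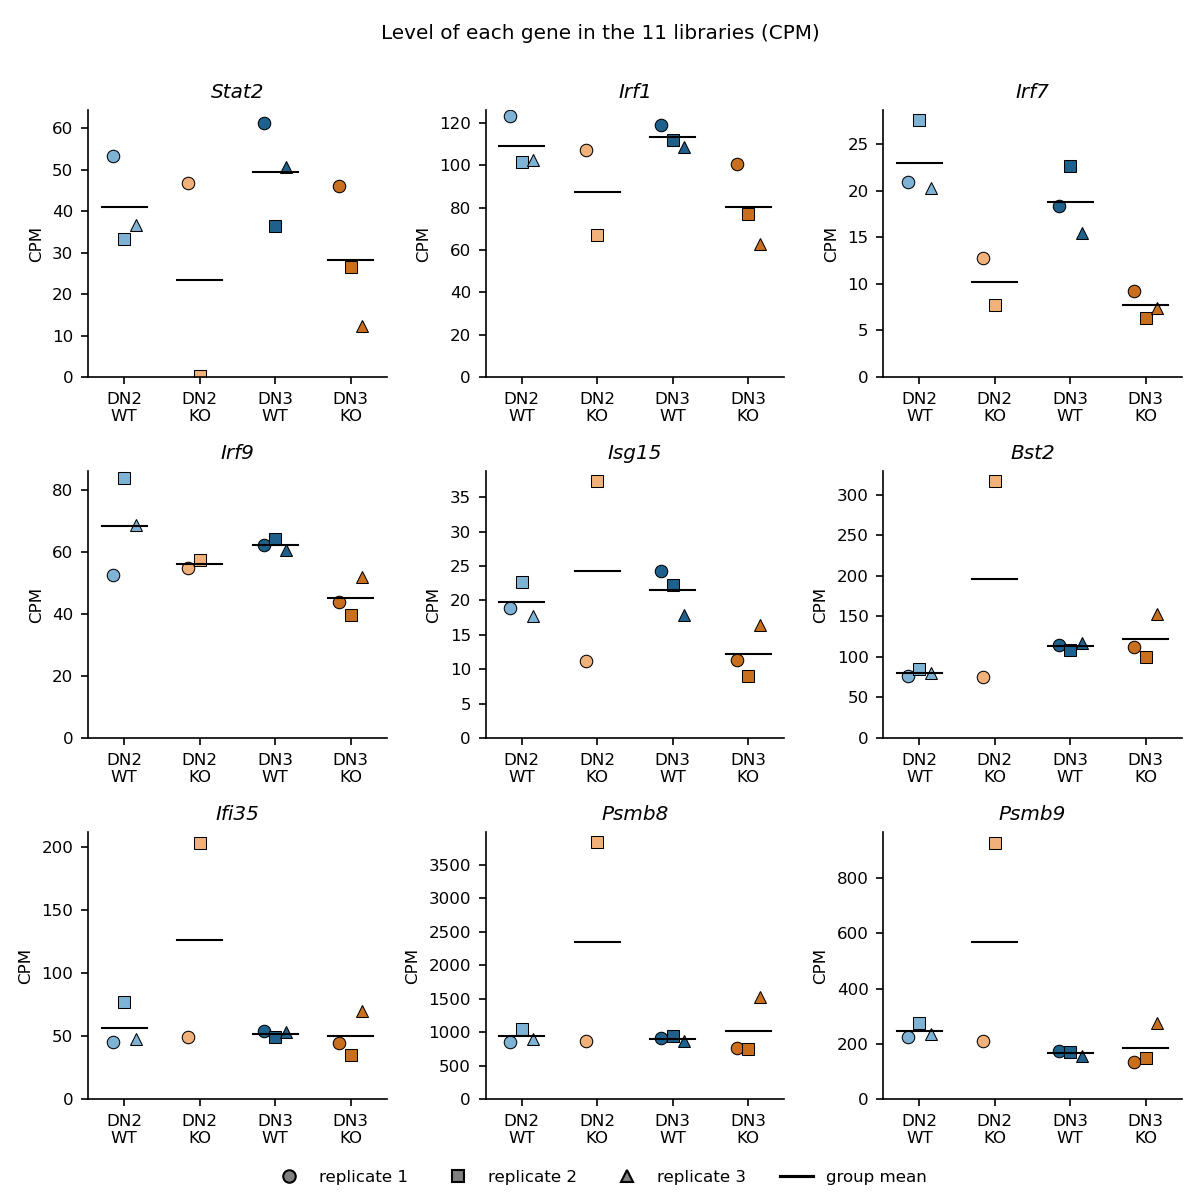
Level of each of the 9 genes in CPM (linear axis from 0, a scale of its own per gene) in the 11 libraries, by stage and genotype, with KO for Arpp21-/-. Points are single libraries, their shape gives the replicate number and lines are group means. Irf7 is lower in all 5 KO libraries than in the WT libraries of the same stage, and Bst2, Ifi35, Psmb8 and Psmb9 are highest in DN2 KO replicate 2.

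The clearest difference between genotypes was that of Irf7 (ENSMUSG00000025498.15, chromosome 7 of GRCm38, 141262706 to 141266481, minus strand), which was 2.45-fold lower in DN3 and 2.25-fold lower in DN2 Arpp21-/- thymocytes by the group means. In DN3 it had 18.4, 22.6 and 15.4 CPM in WT replicates 1, 2 and 3 against 9.28, 6.37 and 7.42 CPM in those of Arpp21-/-. Every Arpp21-/- library lay below every WT library. The means were 18.8 ± 3.62 and 7.69 ± 1.47 CPM (SD, n = 3 each). The difference was -1.29 on the log2 scale (SE 0.319), with an edgeR adjusted p = 1 over 13780 genes and 0.00227 unadjusted. In DN2 it had 21.0, 27.6 and 20.3 CPM in the WT replicates against 12.7 and 7.72 CPM in the Arpp21-/- replicates. Here too the groups did not overlap, with means of 23.0 ± 4.04 (SD, n = 3) and 10.2 ± 3.55 CPM (SD, n = 2) and a log2 fold change of -1.17 (SE 0.363, edgeR adjusted p = 0.336, 0.00902 unadjusted). In TPM the groups did not overlap at either stage. In CPM Irf7 was the single member whose Arpp21-/- libraries were below all WT libraries at both stages. This held for 0.958% of all genes tested in CPM. In TPM Isg15 was also entirely lower at both stages. Leaving out the 2 libraries that stood apart gave -1.27 (SE 0.273) in DN3. In DN2, where a single Arpp21-/- library was then left, it gave -0.83. The counts behind Irf7 were low, between 92 and 608 per library. Irf7 overlaps Phrf1 on the other strand, and as the library kit does not mark strand, reads of the shared bases cannot be told apart.

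Irf9 and Irf1, the other members of the IRF family among the 9, were lower in every DN3 Arpp21-/- library, with smaller fold changes. Irf9 (ENSMUSG00000002325.15, chromosome 14, 55603571 to 55610030) had 62.2, 64.0 and 60.5 CPM in the DN3 WT replicates against 43.7, 39.8 and 52.0 CPM in the DN3 Arpp21-/- replicates. The groups did not overlap, and the log2 fold change was -0.46 (SE 0.242, edgeR adjusted p = 1, 0.0841 unadjusted). In DN2 it had 52.7, 83.9 and 68.6 CPM in the WT replicates against 54.7 and 57.4 CPM in the Arpp21-/- replicates, which lie within the WT range, with a log2 fold change of -0.29 (SE 0.271). Irf9 overlaps Rnf31 on the same strand, so its counts may hold reads of Rnf31. Irf1 (ENSMUSG00000018899.16, chromosome 11, 53770014 to 53778374), an activator of immunoproteasome and MHC class I genes, had 119, 112 and 109 CPM in the DN3 WT replicates against 100.6, 77.1 and 62.6 CPM in the DN3 Arpp21-/- replicates. Again every Arpp21-/- library was lower, with a log2 fold change of -0.50 (SE 0.265, edgeR adjusted p = 1, 0.0875 unadjusted). In DN2 it had 123, 102 and 103 CPM in the WT replicates against 107 and 67.2 CPM in the Arpp21-/- replicates, and the groups overlapped (log2 fold change -0.32, SE 0.297). With the 2 libraries that stood apart left out, Irf1 had -0.36 (SE 0.145) in DN3 and -0.0018 (SE 0.181) in DN2. Irf9 then had -0.58 (SE 0.196) in DN3 and -0.30 (SE 0.247) in DN2.

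Stat2 (ENSMUSG00000040033.16, chromosome 10, 128270559 to 128292849), the partner of IRF9 at the ISRE, had the largest standard errors of the 9. In DN2, WT replicates had 53.3, 33.2 and 36.6 CPM against 46.7 and 0.267 CPM for Arpp21-/-. In DN3, WT replicates had 61.3, 36.4 and 50.6 CPM against 46.1, 26.6 and 12.3 CPM for Arpp21-/-. The 2 lowest values were those of the libraries that stood apart, and 10 counts were found in DN2 Arpp21-/- replicate 2, the deepest library. Stat2 has the longest transcripts of the 9, with 4191 nt on average, and genes of 4000 nt and over had a median difference of -1.99 log2 units between that library and DN2 WT, against -5.02 for Stat2. The groups overlapped at both stages, with a log2 fold change of -0.80 in DN3 (SE 1.09) and -0.80 in DN2 (SE 1.24). Without both libraries the values were -0.45 (SE 0.309) and 0.21 (SE 0.380), the latter with the sign turned.

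Isg15 (ENSMUSG00000035692.6, chromosome 4, 156199424 to 156200818), whose promoter holds 3 overlapping ISRE cores, was 1.75-fold lower in DN3 Arpp21-/- than in DN3 WT thymocytes. It had 24.3, 22.3 and 17.9 CPM in the DN3 WT replicates against 11.3, 9.04 and 16.5 CPM in the DN3 Arpp21-/- replicates. The groups did not overlap, and the highest Arpp21-/- value was that of replicate 3, the library with more reads on short transcripts. The log2 fold change was -0.81 (SE 0.427, edgeR adjusted p = 1, 0.0861 unadjusted), and -1.08 (SE 0.227, edgeR adjusted p = 0.262, 0.00106 unadjusted) without the 2 libraries. In DN2 it had 18.9, 22.7 and 17.7 CPM in the WT replicates against 11.2 and 37.4 CPM in the Arpp21-/- replicates, so that 1 library was below and the other above all WT libraries. Per length, its DN2 levels were 48.2, 51.6 and 42.6 TPM in the WT replicates against 28.4 and 33.6 TPM in Arpp21-/- replicates. Both were below WT, on a scale where the median of all genes in DN2 was also below 0 (-0.45 for log2(TPM + 1)). The log2 fold change in DN2 turned sign, from 0.30 (SE 0.469) to -0.79 without the 2 libraries. The latter value rests on the single Arpp21-/- library left, replicate 1.

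The CPM of Bst2 and Ifi35 overlapped between the genotypes at both stages. Bst2 (ENSMUSG00000046718.8, chromosome 8, 71534255 to 71537456) encodes tetherin, which holds budding virus particles at the cell surface. It had 115, 108 and 117 CPM in the DN3 WT replicates against 112, 99.8 and 153 CPM in the DN3 Arpp21-/- replicates, which overlap. Its log2 fold change was 0.10 (SE 0.424), and below 0 in TPM. On the log2(TPM + 1) scale the median of all genes was itself -0.21 in DN3. In DN2 Bst2 had 77.0, 84.6 and 80.3 CPM in the WT replicates against 75.4 and 317 CPM in the Arpp21-/- replicates. The log2 fold change of 1.28 (SE 0.468) became -0.08 without the 2 libraries, with a single Arpp21-/- library left. Ifi35 (ENSMUSG00000010358.13, chromosome 11, 101448407 to 101458698), an interferon-induced protein with a leucine zipper, behaved alike. It had 53.5, 49.3 and 52.8 CPM in the DN3 WT replicates against 44.4, 34.6 and 70.1 CPM in the DN3 Arpp21-/- replicates, and 45.1, 76.7 and 47.8 CPM in the DN2 WT replicates against 49.5 and 203 CPM in DN2 Arpp21-/- replicates. The highest value at each stage was that of a library that stood apart, and without these libraries the difference on the log2 scale was -0.40 (SE 0.241) for DN3 and -0.17 (SE 0.304) for DN2, against -0.06 and 1.16 with them. In TPM, all 3 DN3 Arpp21-/- libraries of Ifi35 lay below DN3 WT.

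**Figure D2:**
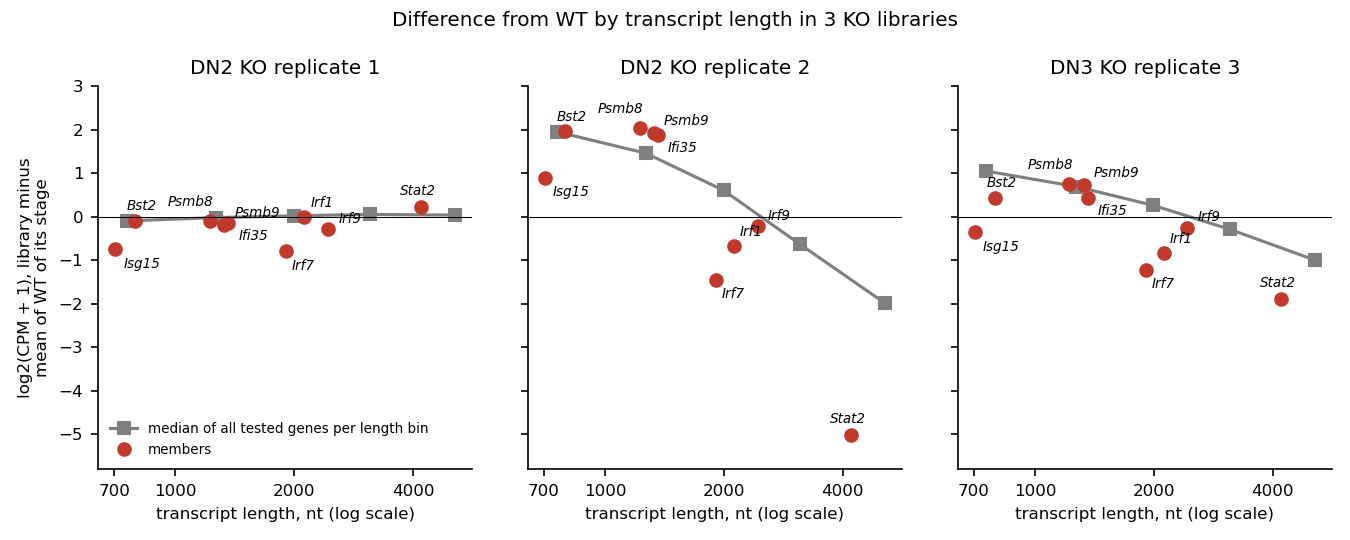
Difference in log2(CPM + 1) between 1 Arpp21-/- (KO) library and the mean of the WT libraries of its stage, against transcript length in nt (log scale), for DN2 KO replicates 1 and 2 and DN3 KO replicate 3. Red points are the 9 genes and grey squares are medians of all tested genes with a mean of at least 10 CPM in 5 bins of length. In DN2 KO replicate 2 the medians run from 1.95 to -1.99 and Psmb8 lies at 2.04, while Irf7 lies below the line in all 3 libraries.

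The plot of the difference by transcript length sets each member beside other genes of its length. In DN2 Arpp21-/- replicate 2, genes of under 1000 nt had a median difference of 1.95 from DN2 WT and genes of 1000 to 1500 nt one of 1.46, and Bst2 with 1.96 was near the median of its bin while Psmb9 with 1.92, Ifi35 with 1.87 and Psmb8 with 2.04 were above theirs. Isg15, with 703 nt, had a difference of 0.894 in this library, below the median of its bin. Irf7, with 1906 nt, had -1.45 where genes of 1500 to 2500 nt had a median of 0.603. In DN3 Arpp21-/- replicate 3 the medians of the bins were between 1.04 and -0.999, with Irf7 at -1.22 and Isg15 at -0.355. In DN2 Arpp21-/- replicate 1, where the medians were between -0.0986 and 0.050, Irf7 had -0.790 and Isg15 -0.755, the lowest values of the 9.

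The genes of both inducible subunits, Psmb8 and Psmb9, lie beside Tap1 on chromosome 17 and were highest in the libraries that stood apart. Psmb8 (ENSMUSG00000024338.15, 34197721 to 34201454) had 858, 1045 and 905 CPM in the DN2 WT replicates against 871 and 3840 CPM for Arpp21-/-. In DN3 it had 907, 939 and 861 CPM for WT against 764, 754 and 1522 CPM for Arpp21-/-. The 2 highest values were those of the libraries that stood apart, and the genotypes overlapped at both stages. Psmb9 (ENSMUSG00000096727.3, 34181987 to 34187764) had 223, 274 and 237 CPM in the DN2 WT replicates against 212 and 927 CPM for Arpp21-/-. In DN3 it had 174, 169 and 157 CPM for WT against 134, 148 and 274 CPM for Arpp21-/-, with the same libraries high. The log2 fold changes of Psmb8 and Psmb9 were 1.33 (SE 0.523) and 1.22 (SE 0.516) in DN2 and became -0.08 (SE 0.138) and -0.19 (SE 0.156) without these libraries. In DN3 they were 0.17 (SE 0.475) and 0.15 (SE 0.468) and became -0.25 (SE 0.109) and -0.25 (SE 0.123). The Arpp21-/- libraries left in DN3, 2 in number, were then below all 3 WT libraries for both genes (edgeR adjusted p = 1, with 0.0447 and 0.0726 unadjusted). With all libraries, TPM also gave values below 0 in DN3 for both. On the log2(TPM + 1) scale the median of all genes was itself -0.21 there. Psmb9 and Tap1 overlap by 212 bases on opposite strands, so their reads there cannot be told apart.

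The ratio of an inducible to its constitutive subunit was taken within each library and was not adjusted for the trend over transcript length. On the log2 scale of TPM, Psmb8 over Psmb5 was 1.54, 1.44 and 1.44 in the DN2 WT replicates against 1.41 and 0.742 for Arpp21-/-. In DN3 it was 1.46, 1.48 and 1.49 for WT against 1.51, 1.19 and 0.986 for Arpp21-/-. The ratio was nearly the same in the WT libraries of both stages. In DN3 2 Arpp21-/- libraries were below WT, the lower of them being the one that stood apart, and 1 was above. Psmb9 over Psmb6 was lower in DN3 than in DN2 WT, with -1.68 ± 0.0792 and -1.16 ± 0.0741 (SD, n = 3 each), and no library of one stage reached the other. In Arpp21-/- it was -1.19 and -1.97 in DN2 and -1.68, -1.80 and -2.27 in DN3 replicates, again lowest in the libraries that stood apart. Psmb10 over Psmb7 overlapped between all 4 groups, with values between 0.119 and 0.591. Psmb11, the subunit of thymic cortical epithelium, had at most 0.500 CPM in any library and was not tested.

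**Figure D3:**
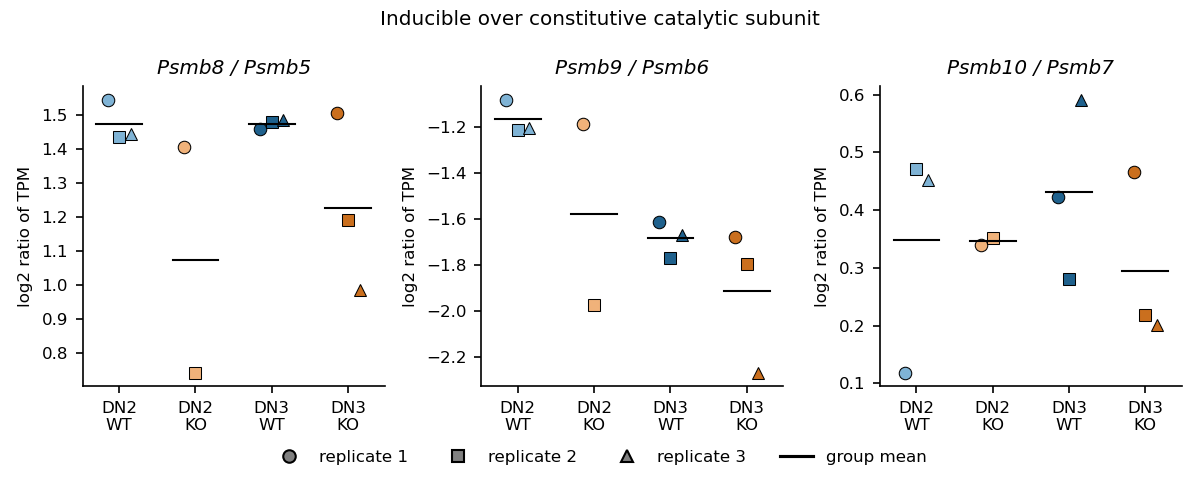
Log2 ratio of TPM of an inducible over the matching constitutive proteasome subunit in the 11 libraries, by stage and genotype, with KO for Arpp21-/-. Points are single libraries, lines are group means and the vertical axes differ and do not start at 0. Psmb9 over Psmb6 is lower in DN3 WT (mean -1.68) than in DN2 WT (mean -1.16), and Psmb8 over Psmb5 is lowest in DN2 KO replicate 2 and DN3 KO replicate 3.

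Over the 9 genes, edgeR called none between genotypes at an adjusted p under 0.05, in a fit that called few genes at all. In DN3 it called 1 gene (0.00726% of those tested), and 1 member, Irf7, had an unadjusted p under 0.05 and was lower, as 1.04% of all genes were at that threshold, with 0.515% higher. DESeq2, which called 0.121% of genes, called Irf7 there (adjusted p = 0.0319), and limma voom with sample quality weights, which called 0.856%, called Irf7 and Isg15 (adjusted p = 0.0180 and 0.0317). In DN2 edgeR called 0.0% of genes, and Irf7, Bst2, Psmb8 and Psmb9 had an unadjusted p under 0.05, the last 3 with the higher value in Arpp21-/-. Of all genes 2.6% were lower and 12.1% higher in DN2 Arpp21-/- at that threshold. The members were entirely lower in DN3 Arpp21-/- for 4 of 9 genes (Irf1, Irf7, Irf9 and Isg15) and entirely higher for 0, where 5.57% and 4.97% of all genes were lower and higher. In TPM the count of lower members was 5, with Ifi35, and that of higher members 0, beside 1147 and 336 of the 13780 genes. In DN2 the counts in CPM were 1 (Irf7) and 0, against 8.28% and 7.52% of all genes. Without the 2 libraries that stood apart, a comparison added after the values were seen, 7 members were entirely lower and 0 higher in DN3, against 10.9% and 11.8% of all genes. In DN2, where a single Arpp21-/- library was left, 4 were lower and 0 higher against 17.8% and 18.1%. The median log2 fold change of the members was then -0.40 in DN3 and -0.17 in DN2, with all 9 below 0 in DN3 and 8 of 9 in DN2, beside medians of -0.00098 and -0.00598 over all genes fitted.

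**Figure D4:**
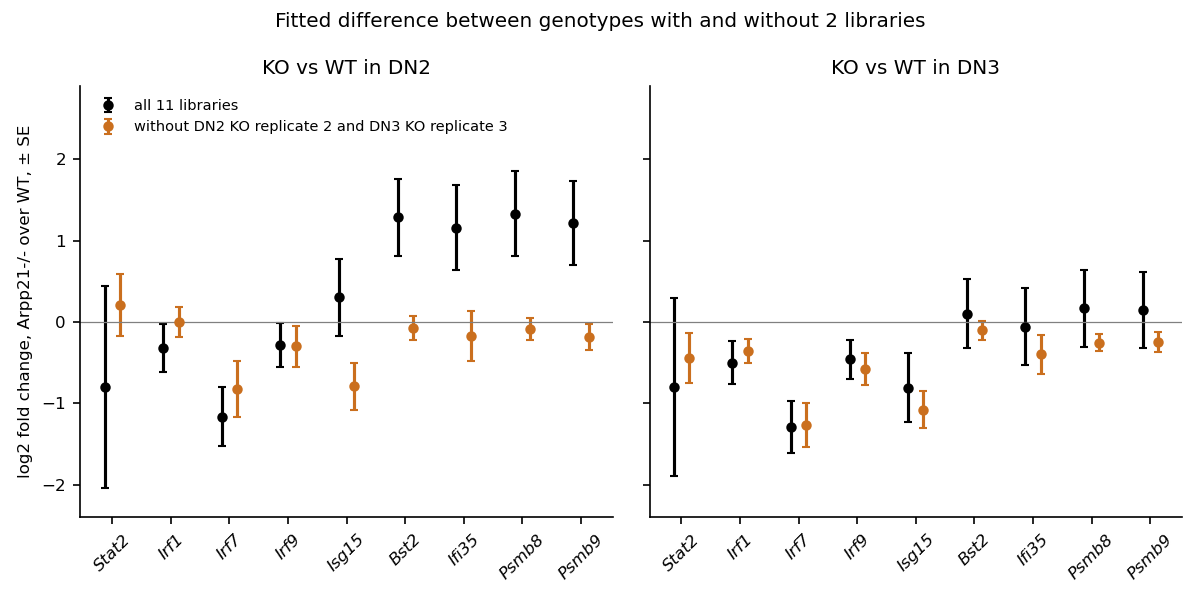
Log2 fold change of Arpp21-/- (KO) over WT with its SE from edgeR for the 9 genes in DN2 (left) and DN3 (right), with all 11 libraries (black) and without DN2 KO replicate 2 and DN3 KO replicate 3 (orange). Irf7 is below 0 in all 4 fits, while Bst2, Ifi35, Psmb8 and Psmb9 in DN2 move from above 1 to below 0. The orange DN2 values rest on a single KO library, and their SE on the spread within the other groups.

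The effect of genotype was not shown to differ between the stages. The interaction, which is the genotype difference in DN3 less the one in DN2 on the log2 scale, was between -1.22 for Ifi35 and 0.00 for Stat2, and edgeR called 0 of the 9 and 0.0% of all genes. Its lowest unadjusted p among the members was that of Bst2, 0.0911, with an adjusted p of 0.964. Irf7 had a difference of -0.12 (SE 0.469) between the stages. Leaving out both libraries gave values between -0.66 for Stat2 and -0.03 for Bst2.

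Between the stages, 2 members did not overlap in WT thymocytes, in opposite directions. Bst2 was entirely higher in DN3 than in DN2 WT, from 80.6 ± 3.84 to 113 ± 4.56 CPM (SD, n = 3 each), and Psmb9 entirely lower, from 245 ± 26.3 to 167 ± 9.11 CPM (SD, n = 3 each). Among all genes tested 17.5% were entirely higher and 17.3% entirely lower. On the log2 scale these were changes of 0.49 (SE 0.425) and -0.55 (SE 0.469), neither called in the fit of all libraries, which called 4.08% of genes. Fitted to the 6 WT libraries alone, where 15.6% of genes were called, the values were 0.52 (SE 0.0993) and -0.53 (SE 0.0997), with adjusted p = 0.0123 and 0.0120 by edgeR. Without the 2 libraries that stood apart 15.3% of genes were called, and again both. Psmb8, encoded next to Psmb9 and Tap1, had a log2 fold change of -0.05 (SE 0.474), with 936 ± 97.0 CPM in DN2 and 902 ± 39.4 CPM in DN3 WT (SD, n = 3 each). The other 6 members overlapped between the stages in WT, with log2 fold changes between -0.29 for Irf7 and 0.27 for Stat2.

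In Arpp21-/- thymocytes edgeR called 4.32% of genes in the same stage comparison and none of the 9. DESeq2, which called 11.6% of genes, called Psmb9 there (log2 fold change -1.68, SE 0.583, adjusted p = 0.0385). In CPM Irf9 was entirely lower in DN3 and no member entirely higher, against 11.6% and 13.4% of all genes. In TPM Ifi35 and Psmb9 were entirely lower and Irf9 overlapped, with no member higher, against 7.83% and 14.5%. The log2 fold change of Psmb9 was -1.62 (SE 0.517) with edgeR adjusted p = 0.120, 0.0104 unadjusted, and that of Bst2 was -0.69 (SE 0.469). Without the 2 libraries, which leaves 1 library of DN2 and 2 of DN3, the values were -0.60 (SE 0.161) for Psmb9 and 0.48 (SE 0.159) for Bst2, the latter with the sign turned. By CPM 7 members were then entirely lower in DN3 and 1, Bst2, higher, against 38.0% and 42.7% of all genes.

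Other genes of interferon signalling were taken as lists of 73 genes by role, 72 of which were tested. Between genotypes edgeR called 0 of them at either stage, and at an unadjusted p under 0.05 there were 7 lower and 0 higher in DN3, beside 1.04% and 0.515% of all genes, and 1 lower and 9 higher in DN2, beside 2.6% and 12.1%. In DN3, 18 were entirely lower in Arpp21-/- and 0 entirely higher, with a median log2 fold change of -0.29 beside -0.00477 over all genes. In DN2, 15 were entirely lower and 0 higher, with a median of -0.39 beside -0.057. With both libraries left out 23 were lower and 2 higher in DN3, and 28 lower and 1 higher in DN2. The shares of all genes in these 4 counts are those given above for the members.

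The lower genes lay mostly in the list of 35 other interferon-induced genes, of which 13 were entirely lower at each stage and 0 higher. Of all genes tested, 5.57% were entirely lower and 4.97% higher in DN3, and 8.28% and 7.52% in DN2. The log2 fold change was negative in 30 of 35 in DN3 and 26 of 35 in DN2, beside 6948 and 7152 of all 13780 genes. Without the 2 libraries that stood apart it was negative in 29 and 34 of 35, beside 6899 and 6989 of 13759 genes. Ifitm1, positive in DN3 with all libraries, was at or under the limit of 3 counts in all 6 DN3 libraries. Its sign there has no meaning. Rsad2, which encodes the antiviral protein viperin, had 13.4, 13.8 and 9.02 CPM in the DN3 WT replicates against 4.00, 4.36 and 0.968 CPM in the DN3 Arpp21-/- replicates, a log2 fold change of -1.95 (SE 0.649, edgeR adjusted p = 1, 0.0132 unadjusted). In DN2 it had 10.2, 12.2 and 12.2 CPM in the WT replicates against 5.62 and 1.12 CPM in the Arpp21-/- replicates. Oasl2, of the oligoadenylate synthetase family, had 19.0, 20.8 and 14.9 CPM in the DN3 WT replicates against 5.93, 7.46 and 1.94 CPM in the DN3 Arpp21-/- replicates. In DN2 Oasl2 had 25.5, 20.9 and 22.2 CPM in the WT replicates against 14.5 and 0 CPM in the Arpp21-/- replicates, where 0 allows up to 0.0802 CPM. Rsad2 and Oasl2 had no overlap between the genotypes at either stage. At each stage both were lowest in the library that stood apart. Ifi44, another interferon-induced gene, had 12.8, 13.7 and 15.5 CPM in the DN3 WT replicates against 4.25, 3.59 and 6.86 CPM in the DN3 Arpp21-/- replicates (log2 fold change -1.52, SE 0.482). In DN2 Ifi44 overlapped, with 5.70, 8.04 and 4.64 CPM in the WT replicates against 2.48 and 8.37 CPM in Arpp21-/- replicates. Cmpk2, a mitochondrial nucleotide kinase beside Rsad2 in the genome, had 7.39, 12.3 and 10.6 CPM in the DN3 WT replicates against 5.46, 6.59 and 3.31 CPM in the DN3 Arpp21-/- replicates, which did not overlap. At an unadjusted p under 0.05 in DN2, 1 gene of this list was lower, Rsad2, and 2 were higher, Oas1a and Ifi27. Oas1a, an oligoadenylate synthetase, had 24.5, 31.2 and 20.4 CPM in the DN2 WT replicates against 24.8 and 89.3 CPM in the DN2 Arpp21-/- replicates (log2 fold change 1.17, SE 0.503, edgeR adjusted p = 0.339, 0.0419 unadjusted). Ifi27 had 118, 153 and 125 CPM in the DN2 WT replicates against 115 and 561 CPM in the DN2 Arpp21-/- replicates (log2 fold change 1.35, SE 0.591, edgeR adjusted p = 0.339, 0.0448 unadjusted). Both overlapped between the genotypes, with the high value in replicate 2, which stood apart. In CPM, Rsad2, Oas3, Oasl2, Ifit1, Iigp1 and Dhx58 were the 6 genes of the lists that were entirely lower at both stages. Irf7 was so among the members, and 0.958% of all genes tested were.

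**Figure D5:**
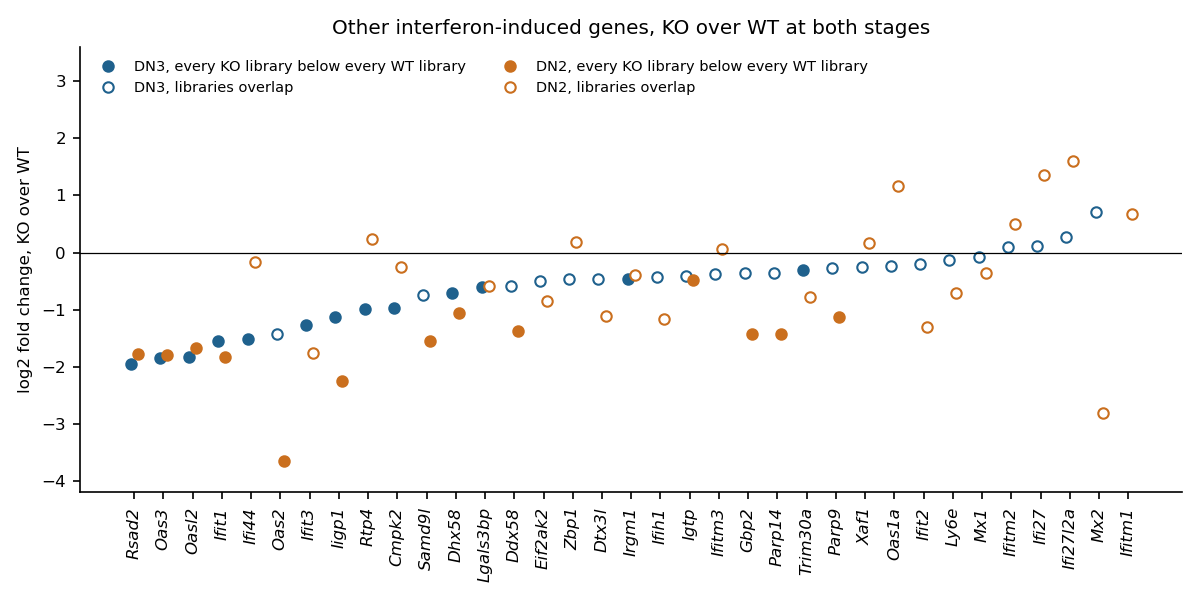
Log2 fold change of Arpp21-/- (KO) over WT from edgeR with all 11 libraries for the 35 other interferon-induced genes in DN3 (blue) and DN2 (orange), in the order of the DN3 value. Filled points are genes in which every KO library lay below every WT library, 13 at each stage, and the DN3 value of Ifitm1 is left out because it was at or under 3 counts in all 6 libraries.

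In the other lists 5 genes were entirely lower in DN3, namely Ifngr1, Ifnar2, Ube2l6, Usp18 and Tap1. Of 8 receptor and kinase genes, 2 were thus lower in DN3 and none in DN2. Ifngr1, a chain of the interferon-γ receptor, had 677, 481 and 484 CPM in the DN3 WT replicates against 342, 259 and 404 CPM in the DN3 Arpp21-/- replicates. Of 7 other IRF genes and their cofactors none was entirely lower or higher between genotypes at either stage. For the conjugation of ISG15, Ube2l6, the conjugating enzyme, and Usp18, the protease that removes ISG15, were 2 of 5 genes, and Usp18 also counts as an inhibitor of the type I receptor. Usp18 had 30.7, 40.1 and 28.1 CPM in the DN3 WT replicates against 18.8, 15.9 and 19.7 CPM in the DN3 Arpp21-/- replicates (log2 fold change -0.86, SE 0.335). The 11 proteasome genes tested had a positive log2 fold change in 10 cases in DN2 and 9 in DN3, with medians of 1.30 and 0.37, and without the 2 libraries a negative one in 11 and 8 cases, with medians of -0.09 and -0.04. Tap1, the peptide transporter gene that overlaps Psmb9, had 212, 213 and 194 CPM in the DN3 WT replicates against 153, 147 and 148 CPM in the DN3 Arpp21-/- replicates, entirely lower (log2 fold change -0.46, SE 0.202).

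Between the stages in WT, 3 of the 72 list genes tested rose and 5 fell by edgeR at an adjusted p under 0.05. Of all 13780 genes tested, 256 rose and 306 fell at that threshold. Irf4 had 0 CPM in all DN2 WT libraries, which allows up to 0.136 CPM, and 1.24 to 1.69 CPM in DN3 WT. Socs3, a feedback inhibitor of cytokine signalling, rose with a log2 fold change of 2.06 (SE 0.416), and Zbp1, a sensor of Z-form nucleic acids, with one of 1.74 (SE 0.361). Irf5 had 5.41 to 11.4 CPM in DN2 WT and at most 0.128 CPM in DN3 WT. Ifitm1 had 63.1 to 81.0 CPM in DN2 WT and at most 0.0456 CPM in DN3 WT, and Ifitm2 and Ifitm3, its neighbours in the family of membrane proteins that restrict virus entry, fell with log2 fold changes of -1.87 (SE 0.344) and -2.78 (SE 0.440). Cmpk2 fell by 2.28 on the log2 scale (SE 0.338). The log2 fold changes of the members in this comparison were between -0.55 and 0.49.

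The genes most like the members were sought by Pearson's r with the mean of the 9 scaled log2 CPM profiles, a description over libraries that share depth, stage and length trend. Over 11 libraries these were Rtp4 (r = 0.969), Tsc22d3 (0.928), Kdsr (0.919), Ltb (0.916) and Mst1r (0.890). By the same measure over the 9 libraries without those that stood apart they were Dhx58 (0.954), Rtp4 (0.947), Gm34727 (0.929), Kdsr (0.929) and Fbxo3 (0.926). Rtp4 and Dhx58 are interferon-induced genes of the lists above. Of the members, Isg15 was nearest to the mean profile over 11 libraries (0.956) and Irf7 over 9 (0.945). The furthest were Stat2 (-0.449), Irf1 (0.096) and Bst2 (0.393) over 11 libraries, and Bst2 (-0.071) and Stat2 (0.440) over 9. The mean was thus not a profile shared by all 9 members.

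Coding transcripts made up at least 92.7% of the TPM of Irf1, Irf9, Isg15, Bst2 and Ifi35 in every library. For Irf7 the share was 79.8% to 100%, and for Psmb8 66.9% to 74.4%, the rest being mostly the retained-intron transcript Psmb8-205 with 25.1% to 32.6% of the TPM of the gene. For Stat2 coding transcripts held 46.4% to 75.9% of the TPM except in DN2 Arpp21-/- replicate 2, with 13.3% of few counts. Arpp21 is known to bind uridine-rich motifs in 3′ untranslated regions, and the annotated 3′ ends of the leading coding transcripts were examined for 8 members. They held 21.4% to 29.7% uridine, against a median of 29.0% over 12090 genes. A run of at least 7 uridines occurred in Irf9 alone, against 38.4% of all genes. These 3′ ends were 42, 160, 237, 244 and 306 nt long in Irf7, Isg15, Psmb9, Bst2 and Ifi35. In Irf1, Irf9 and Stat2 they were 877, 999 and 1476 nt long, against a median of 870 nt over all genes. The comparison was not matched for length, and binding by Arpp21 was not tested.

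The summed CPM of each of 9 marker lists overlapped between WT and Arpp21-/- libraries at both stages. Bst2 also marks plasmacytoid dendritic cells, of which Klk1 was at 0 in all libraries and Siglech was at most 0.784 CPM. Ccr9 of the same list had 0.347 to 14.1 CPM in DN2 and 80.0 to 228 CPM in DN3 libraries. The whole list of 6 genes summed to 692 to 916 CPM in DN2 WT, 590 to 1897 CPM in DN2 Arpp21-/-, 1476 to 1584 CPM in DN3 WT and 983 to 1814 CPM in DN3 Arpp21-/- libraries, of which Ly6d, also found in thymocytes, made up 571 to 1893 CPM. The myeloid list summed to 114 to 159 CPM in DN2 WT, 134 to 357 CPM in DN2 Arpp21-/-, 29.9 to 36.8 CPM in DN3 WT and 34.7 to 47.6 CPM in DN3 Arpp21-/- libraries. The NK cell list summed to 305 to 384 CPM in WT and 274 to 1775 CPM in Arpp21-/- libraries, with Ncr1 at most 0.0456 CPM. Nkg7 of that list had 304 to 338 CPM in DN2 WT and 1652 CPM in DN2 Arpp21-/- replicate 2. Gzma reached 486 CPM, in DN3 Arpp21-/- replicate 3. The B cell list summed to 38.6 to 71.9 CPM, with Pax5 at 0 in all libraries and Cd79b at 38.4 to 71.6 CPM. The lists of DP thymocytes, γδ T cells and thymic epithelium reached at most 501, 294 and 107 CPM, where that of γδ T cells rests on 2 of its 5 genes, Trdc and Sox13, as the others were not analysed here. The list of DN3 thymocytes summed to 2390 to 3165 CPM in DN2 and 6076 to 7093 CPM in DN3 libraries, and that of DN2 thymocytes to 378 to 3477 CPM in all. The part of these cells in the results was not tested. In bulk samples fewer cells of a type and less RNA per cell cannot be told apart.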

How the data were processed

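RNA of sorted thymocytes was total RNA by the labels and poly-A selected by the study's methods, with libraries of SmartSeq V4 and Nextera, which do not mark strand, and paired reads of 150 bases. Per the labels, the authors used kallisto 0.46 with GRCm38. Its deposited estimated counts (expected counts of read pairs per transcript, need not be whole) are not normalized. Its TPM are deposited by the authors as counts over effective length, brought to one total in each library. Lengths and effective lengths are deposited in bases, another unit.

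Transcripts were assigned to genes with GENCODE M21 (116728 of 119414 matched, with 98.93% to 99.07% of counts), summed and rounded. Genes passed filterByExpr (minimum count 10, minimum total 15). Differences were tested two-sided with the quasi-likelihood functions of edgeR 4.0.16 in R 4.3.3 (glmQLFit, then glmQLFTest) and TMM scaling, in 1 fit of all 11 libraries as 4 groups, with Benjamini-Hochberg adjustment over 13780 genes and calls at 0.05. The SE is the absolute log2 fold change over the square root of F and is approximate. Alternatives used DESeq2 1.42.0 and limma 3.58.1, log2(TPM + 1) and log2(TPM + 0.1) in 12548 genes, and libraries left out. The fit was tested on simulated counts. Entirely lower means that every library of a group is below every library of the other. An upper limit of 0 counts is 3 counts and covers counting error only. The numbers of replicates were not used to pair the libraries. Plots and tables used Python 3.11.15 and matplotlib 3.10.9.

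The members, gene lists, marker lists and tests were chosen with earlier results of these data known. The text names the members, the genes of 7 lists by role, the 5 genes most like the members, and Arpp21. From 9 marker lists (DN2, DN3 and DP thymocytes, B, myeloid, plasmacytoid dendritic, NK and γδ T cells, thymic epithelium), examples are named.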

Additional observations from a re-analysis of the deposited data

How the results depend on the processing

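The lower Irf7 of Arpp21-/- held its direction in all 24 alternatives in DN3, from -1.60 to -1.14 on the log2 scale with adjusted p between 0.018 and 1, and in DN2 from -1.95 to -0.83. Irf1, Irf9, Isg15 and Stat2 were also below 0 in DN3 in every alternative. Genes called for DN3 against DN2 in WT, 562 in the report, were 1192 with DESeq2, 2326 with limma voom and sample weights, 1946 with the WT libraries alone, 2226 without the 2 libraries that stood apart, and 243 to 1080 with each library left out. Members called there were 1 with voom (Psmb9), and 2 with the WT libraries alone or without the 2 libraries. In Arpp21-/-, 595 genes became 1600 with DESeq2 (1 member), 925 with an offset for the trend over transcript length, 140 with voom, 0 with the Arpp21-/- libraries alone, 896 without the 2 libraries, 993 at an adjusted p under 0.1, and 281 to 6754 with each library left out. Between genotypes in DN3, 1 gene became 16 with DESeq2 (1 member), 118 with voom (2 members), 2 with log2(TPM + 0.1), 0 with the DN3 libraries alone, 5 without the 2 libraries, and 0 to 1 with each library left out. DESeq2 called 38 genes between genotypes in DN2 and 10 for the interaction, against 0 for both. Without DN2 Arpp21-/- replicate 1, which leaves replicate 2 alone and assumes that it varies like the other groups, 6777 genes and 6 members were called in DN2, 3664 and 6 for the interaction and 6754 and 6 for the stage in Arpp21-/-, and with each other library left out these member counts were 0. Alternatives added after the data were seen gave, without the 2 libraries, 7 members entirely lower in DN3 and 4 in DN2. For the other pathway genes they gave 2 higher in DN3 and 28 lower and 1 higher in DN2. With TPM, 2 members were entirely lower in DN2, beside 1507 of the 13780 genes tested. For the stage in Arpp21-/-, 1 member was entirely lower and 0 higher. These counts became 7 and 1 without the 2 libraries, and with TPM 2 were lower.

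Signs turned as follows, on the log2 scale. With those 2 libraries left out, the genotype difference in DN3 was -0.10 for Bst2, -0.25 for Psmb8 and -0.25 for Psmb9, that in DN2 was 0.21 for Stat2, -0.79 for Isg15, -0.077 for Bst2, -0.17 for Ifi35, -0.084 for Psmb8 and -0.19 for Psmb9, and the stage difference in Arpp21-/- was -0.37 for Stat2 and 0.48 for Bst2. In DN3, Bst2, Psmb8 and Psmb9 were -0.11, -0.22 and -0.18 with voom, -0.14, -0.068 and -0.060 with the length offset, and -0.15, -0.15 and -0.12 with either pseudocount on TPM. Isg15 in DN2 was -0.60 with log2(TPM + 1), -0.61 with log2(TPM + 0.1) and -0.57 with the length offset, which also gave 0.032 for Psmb8 between stages in WT and 0.085 for Bst2 in Arpp21-/-. With log2(TPM + 1) the stage difference in WT was 0.010 for Irf9, 0.040 for Ifi35 and 0.071 for Psmb8, that in Arpp21-/- 0.43 for Irf1, 0.11 for Irf7, 0.21 for Irf9 and 0.22 for Bst2, and the interaction 0.26 for Irf1, 0.27 for Irf7 and 0.20 for Irf9. With log2(TPM + 0.1) the last 7 were 0.44, 0.19, 0.23, 0.22, 0.28, 0.35 and 0.22, and the WT values 0.011, 0.040 and 0.071. On the log2(TPM + 1) scale the median of all genes shifted by 0.13 and 0.43 for the stage in WT and Arpp21-/-, by -0.21 and -0.45 for the genotype in DN3 and DN2, and by 0.28 for the interaction. The causes of these changes were not tested beyond the libraries left out.

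With each library left out in turn, the stage difference in WT ran from -0.29 to 0.036 for Irf9, -0.26 to 0.16 for Ifi35 and -0.11 to 0.031 for Psmb8, highest without DN2 WT replicate 2. That in Arpp21-/- ran from -0.76 to 6.71 for Stat2, -0.46 to 0.26 for Irf1, -1.60 to 0.092 for Isg15, -1.37 to 0.66 for Bst2 and -1.92 to 0.19 for Psmb8. The genotype difference in DN3 ran from -0.10 to 0.23 for Bst2, -0.39 to 0.14 for Ifi35, -0.25 to 0.34 for Psmb8 and -0.25 to 0.34 for Psmb9, lowest without DN3 Arpp21-/- replicate 3. That in DN2 ran from -7.24 to 0.21 for Stat2, -0.79 to 0.91 for Isg15, -0.076 to 1.97 for Bst2, -0.17 to 1.84 for Ifi35, -0.083 to 2.03 for Psmb8 and -0.19 to 1.91 for Psmb9, with its ends without the one or the other Arpp21-/- library. The interaction ran from -0.51 to 0.21 for Irf1, -0.47 to 0.29 for Irf7, -1.87 to 0.17 for Bst2, -1.90 to 0.10 for Ifi35, -1.86 to 0.25 for Psmb8 and -1.76 to 0.33 for Psmb9.

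The correlations of deviations between libraries of one number ran from -0.399 to 0.490, both ends being Arpp21-/- libraries across the stages. Between DN2 and DN3 WT they were 0.248, 0.0745 and 0.149 for the same number, against -0.181 to 0.0473 for different numbers. The labels state no pairing, and the numbers were not used to pair the libraries in the main fit. Whether libraries of one number share a mouse was not tested. With the replicate number as a replicate block, 0 genes were called between genotypes in DN3. With a replicate block by genotype and number across the stages, 216 genes were called between the stages in WT and 120 in Arpp21-/-, and Irf1 there was 0.051 with the sign turned. No member was called with either block. Depth limits Irf7 and Isg15 most, since one of them had the lowest count of the 9 in 10 of 11 libraries.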
